A study of Mus musculus with 6 samples.

Results

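AP-1 is a family of transcription factors that work in pairs, and 10 of its genes were examined in mouse ear skin on which ticks had fed. The genes were taken by name from the 15667 genes of the deposited expression table: Fos, Fosb, Fosl1 and Fosl2 (the FOS proteins), Jun, Junb and Jund (the JUN proteins), and Atf3, Batf and Maff. All 10 were found. In the table's coordinates (GRCm38) they lie as follows: Fos at chr12:85473890-85477274, Fosb at chr7:19302696-19310045, Fosl1 at chr19:5447698-5455938, Fosl2 at chr5:32136472-32157839, Jun at chr4:95049036-95052222, Junb at chr8:84976909-84978748, Jund at chr8:70697739-70700616, Atf3 at chr1:191170297-191183333, Batf at chr12:85686720-85709087 and Maff at chr15:79346621-79359076. RNA was sequenced from female mice of 7 to 8 weeks with an intact adiponectin gene (Adipo+/+, WT, n = 3) and from littermates homozygous for a null allele of it (Adipo-/-, KO, n = 3). Both groups came from heterozygous breeding pairs of the mixed B6;129 background (B6;129-Adipoqtm1Chan/J, a null allele carried in all tissues), and were challenged with 10 ticks per mouse. After 48 h one 3.5 mm punch was taken from the bite site on the ear, so each library is a mixture of all cell types there, and fewer cells of a type cannot be told apart from less RNA per cell. Unbitten skin was not analysed here. The question was whether transcripts of this family differed between WT and KO skin during feeding.

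AP-1 proteins carry a basic region that contacts DNA and a leucine zipper through which they pair. FOS proteins must pair with a JUN protein, whereas JUN proteins can also pair with each other, and ATF3, BATF and small MAF proteins join the same network. Several of the genes are immediate early genes: their transcription rises within minutes of growth factor, cytokine, stress or wounding signals carried by MAPK kinases, and their RNA is short-lived. In skin the family is known for roles in keratinocyte growth and differentiation, wound closure and inflammation.

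The promoters of the members that the comparison turned on are shown first. Each window runs from 250 bases before to 50 bases after the RefSeq transcription start (GRCm38.p6). Fosb, Fos and Atf3 are shown because they had the smallest p-values of the family, and Jun as a JUN gene whose groups overlapped. Capitals mark TGACG, a partial cAMP response element, on either strand, TGACNTCA, and the TATA box TATAAA. The windows are chr7:19309996-19310295 (minus strand) for Fosb, chr12:85473640-85473939 (plus strand) for Fos, chr1:191183284-191183583 (minus strand) for Atf3 and chr4:95052173-95052472 (minus strand) for Jun.
Fosb: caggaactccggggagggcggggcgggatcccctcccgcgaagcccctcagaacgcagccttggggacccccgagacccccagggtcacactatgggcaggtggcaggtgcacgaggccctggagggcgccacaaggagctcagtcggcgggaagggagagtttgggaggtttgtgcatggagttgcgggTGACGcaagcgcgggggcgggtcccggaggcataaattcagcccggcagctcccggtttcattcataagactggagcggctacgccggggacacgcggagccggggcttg
Fos: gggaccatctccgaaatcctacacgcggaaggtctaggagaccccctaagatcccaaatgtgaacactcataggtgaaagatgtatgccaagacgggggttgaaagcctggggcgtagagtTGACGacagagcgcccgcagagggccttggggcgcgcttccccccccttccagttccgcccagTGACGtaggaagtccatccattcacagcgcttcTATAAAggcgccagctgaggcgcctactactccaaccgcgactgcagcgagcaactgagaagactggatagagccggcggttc
Atf3: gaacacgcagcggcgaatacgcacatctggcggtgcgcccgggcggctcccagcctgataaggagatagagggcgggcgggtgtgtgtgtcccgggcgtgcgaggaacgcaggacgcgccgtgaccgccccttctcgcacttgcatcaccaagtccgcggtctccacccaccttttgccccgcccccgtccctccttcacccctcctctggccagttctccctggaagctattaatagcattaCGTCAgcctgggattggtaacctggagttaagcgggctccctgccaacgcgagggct
Jun: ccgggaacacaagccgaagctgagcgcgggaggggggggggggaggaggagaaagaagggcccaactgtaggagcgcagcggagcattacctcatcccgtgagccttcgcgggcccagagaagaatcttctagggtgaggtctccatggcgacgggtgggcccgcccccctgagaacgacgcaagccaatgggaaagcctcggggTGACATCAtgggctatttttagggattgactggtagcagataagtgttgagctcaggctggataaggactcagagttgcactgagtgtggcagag

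Counted from the start, TGACG began at -60 in Fosb and at -129 and -66 in Fos, and its reverse complement CGTCA began at -7 in Atf3. In Jun the element TGACATCA began at -45, and in Fos a TATAAA began at -33. All motifs were searched on both strands. Windows were found for 9 of the 10 genes (11 windows, of which Maff has 3). TGACG was present on at least 1 strand in 6 of these 9 genes (Fos, Fosb, Junb, Atf3, Batf and Maff). Counted by window, it was in 7 of the 11 and in 20.8% of all 32851 promoter windows of the same length. TGACNTCA, which includes the full element TGACGTCA and overlaps TGACG there, was found in 2 genes (Jun and Maff). It was in 3 of the 11 windows and in 8.83% of all windows. The full element was found in Maff, in 1 of the 11 windows, and in 1.79% of all windows. TATAAA was found in 2 genes (Fos and Junb), in 2 of the 11 windows, and in 13.6% of all windows. In Junb it began at 1, the annotated start itself, and not before the start as in Fos. The AP-1 site TGANTCA and the CArG box, which binds serum response factor, had no match in the members' windows. These motifs were in 7.81% and 1.63% of all windows, and a match is a description of the letters only. Bases outside the windows were not searched, so the absence of an AP-1 site or CArG box holds for these windows only.

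The levels were then read in each library. Values are counts per 1000000 reads (CPM), and the depth read from the lowest values spanned 4131361 to 6065618 reads over the WT group and 3403706 to 6591523 over the KO group. Adipoq, the targeted gene, was at 30.5, 63.7 and 49.6 CPM in the WT libraries and at 0, 0.560 and 0 CPM in the KO libraries, so all 6 labels matched it. Over all pairs of libraries the counts differed by more than sampling noise (chi-square of 8.23 to 42.3 per degree of freedom), so none was a duplicate. Markers fixed for skin were abundant: the 10 keratinocyte markers summed to 34837 to 53524 CPM. The 16 hair follicle markers differed most between libraries, from 12.8 to 23722 CPM in WT and from 977 to 9387 CPM in KO, with 12 of the 16 at 0 in at least 1 library. A fit with their score as a covariate was made for all 9 tested members.

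**Figure D1:**
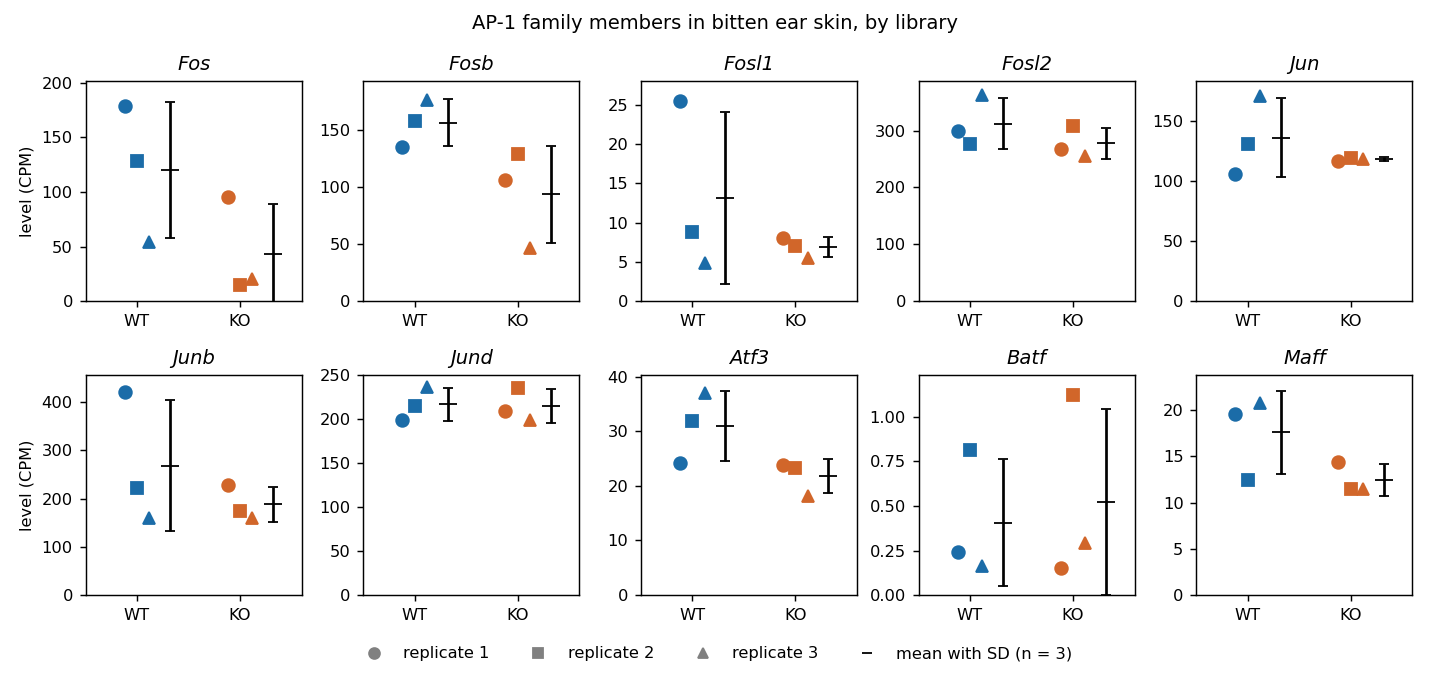
Level of each of the 10 members in CPM (vertical axis, from 0, scaled per gene) in the 3 WT (blue) and 3 KO (orange) libraries, with the marker shape giving the replicate number and the black bar the mean with SD (n = 3), cut off at 0 for Fos and Batf in KO. The KO points of Fosb and Atf3 all lie below the WT points, and those of the other members overlap with them.

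Fos and Fosb had the most negative fold changes of the family. Fos encodes c-Fos, the archetype of an immediate early transcription factor. WT replicates 1, 2 and 3 held 179, 128 and 54.7 CPM of it, and KO replicates 1, 2 and 3 held 95.6, 14.6 and 20.9 CPM. KO replicate 1 lay above WT replicate 3, so the groups overlapped, and the remaining KO libraries were the 2 lowest of the 6. Means were 121 ± 62.3 in WT against 43.7 ± 45.1 CPM in KO (SD, n = 3 each), or 1700 reads over the WT libraries and 753 over the KO libraries. The limma log2 fold change, which is on the log2(CPM + 0.5) scale like all others here, was -1.79 (SE 0.70, 95% interval -3.40 to -0.18, unadjusted p = 0.0336, adjusted p = 0.998). The exact permutation p was 0.2, where 3 against 3 libraries cannot give less than 0.1.

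Fosb encodes a FOS protein that is induced together with c-Fos. It was named by the study from these libraries. The WT replicates held 135, 158 and 177 CPM of it and the KO replicates 106, 129 and 46.4 CPM. All 3 KO libraries were below all 3 WT libraries, but the highest KO value and the lowest WT value were close, and KO replicate 3 stood far below the other 2. The mean was 157 ± 20.8 in WT against 93.9 ± 42.7 CPM in KO (SD, n = 3 each). In limma the log2 fold change was -0.85 (SE 0.34, 95% interval -1.64 to -0.06, unadjusted p = 0.0379, adjusted p = 0.998), and the exact permutation p was 0.1, the smallest possible. Without KO replicate 3 the log2 fold change was -0.41 (unadjusted p = 0.0393 in limma).

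Fosl1 and Fosl2 encode FRA-1 and FRA-2, FOS proteins without the strong activation domain of c-Fos. Fosl1, which is known to rise in migrating keratinocytes at wound edges, was at 25.5, 8.82 and 4.90 CPM in WT, against 8.08, 6.99 and 5.53 CPM in KO. WT replicate 1 alone stood apart, and WT replicate 3 was the lowest of all 6 libraries. The log2 fold change in limma was -0.58 (SE 0.52, 95% interval -1.79 to 0.62, adjusted p = 0.998). Without WT replicate 1 it was 0.039, and without WT replicate 3 it was -1.09 (unadjusted p = 0.0294, adjusted p = 0.907 in limma). Implied reads of Fosl1 were fractional (105.29 in WT replicate 1), and its position overlaps Ccdc85b on the opposite strand, so its level is uncertain. Fosl2 was at 298, 276 and 363 CPM in WT, against 267, 309 and 256 CPM in KO. Its groups overlapped, with a log2 fold change of -0.17 in limma (95% interval -0.47 to 0.14, adjusted p = 0.998).

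The fold changes of the 3 JUN genes were nearer to 0 than those of Fos and Fosb, and their groups overlapped. Junb encodes a JUN protein whose loss in keratinocytes is known to give skin inflammation. It was at 421, 222 and 161 CPM in WT, against 229, 175 and 160 CPM in KO. As for Fosl1, the difference lay in WT replicate 1. The log2 fold change in limma was -0.41 (SE 0.32, 95% interval -1.15 to 0.34, adjusted p = 0.998). Without WT replicate 1 it was -0.024, and without WT replicate 3 it was -0.72 (unadjusted p = 0.0225, adjusted p = 0.862 in limma).

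Jun encodes c-Jun, the main partner of FOS proteins. It was at 106, 131 and 171 CPM in WT, against 116, 119 and 118 CPM in KO. The KO libraries were nearly equal (118 ± 1.54 CPM, SD, n = 3) and lay inside the range of the WT libraries (136 ± 32.9 CPM). Its log2 fold change in limma was -0.17 (95% interval -0.56 to 0.21, adjusted p = 0.998). Without WT replicate 3 it was 0.0050, and without WT replicate 1 it was -0.34 (unadjusted p = 0.0420, adjusted p = 0.956 in limma). Jund, a JUN gene that is expressed steadily in most tissues, was at 199, 215 and 236 CPM in WT, against 210, 236 and 199 CPM in KO. It varied least of the 10 members, with a ratio of 1.19 between its highest and lowest library against 12.3 for Fos. The limma log2 fold change of Jund was -0.01 (SE 0.11, 95% interval -0.27 to 0.24, adjusted p = 0.998), and its sign turned with the scaling (0.015 after median-of-ratios rescaling). GENCODE M21 places an antisense gene over Jun and another over Jund, and the sources used here do not say whether counting used strand.

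Of the other members, Atf3 encodes a stress-induced factor that represses many inflammatory genes. It was at 24.2, 31.9 and 36.9 CPM in WT, against 23.8, 23.3 and 18.2 CPM in KO. The groups did not overlap, although WT replicate 1 and KO replicate 1 were nearly equal. Means were 31.0 ± 6.41 in WT against 21.8 ± 3.09 CPM in KO (SD, n = 3 each), with a log2 fold change in limma of -0.49 (SE 0.20, 95% interval -0.95 to -0.03, unadjusted p = 0.0383, adjusted p = 0.998). The exact permutation p was 0.1.

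Maff encodes a small MAF protein, which binds DNA but has no activation domain. It was at 19.6, 12.4 and 20.8 CPM in WT, against 14.4, 11.5 and 11.5 CPM in KO, and KO replicate 1 lay above WT replicate 2. Its log2 fold change in limma was -0.46 (SE 0.24, 95% interval -1.003 to 0.09, unadjusted p = 0.0903, adjusted p = 0.998). Batf, which encodes a factor of T cells and other leukocytes, was near the limit of detection. It had 1, 4 and 1 reads in the WT libraries and 1, 4 and 1 reads in the KO libraries, where 3 reads stand for 0.455 to 0.881 CPM. Its mean of 0.465 CPM was below the minimum of 1 CPM, so it was not tested.

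**Figure D2:**
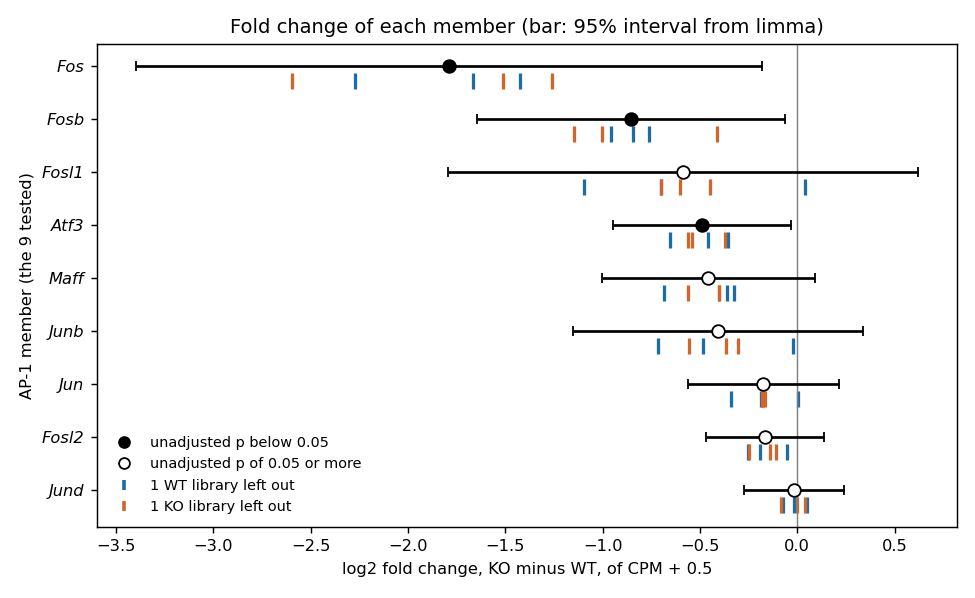
Log2 fold change (KO minus WT, on CPM + 0.5) of the 9 tested members, with the 95% interval from limma as a bar and filled points for an unadjusted p below 0.05. Coloured ticks under each point give the value with 1 library left out: that of Fosb lies at -0.41 without KO replicate 3, and those of Fosl1, Junb and Jun come to 0.039, -0.024 and 0.0050.

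In all, 0 of the 9 tested members passed the Benjamini-Hochberg adjustment in limma, against 2 of 14306 genes tested (0.014%), and 0 passed in limma voom. At an unadjusted p below 0.05, 3 members were lower in KO skin (Fos, Fosb and Atf3), against 260 of all genes tested (1.82%). None was higher, against 152 of all genes tested (1.06%). Over all genes the split moved to 215 lower and 209 higher after median-of-ratios rescaling, and to 193 lower and 232 higher after quantile normalization, while the members' counts were 3 and 0 under both. The KO values lay wholly below the WT values in 2 members (Fosb and Atf3), against 4.89% of all genes tested, and wholly above them in 0, against 2.95%. All 9 fitted fold changes were negative, with a median of -0.46, where 56.7% of all genes tested were negative with a median of -0.03. Markers of cell types moved in both directions. All 15 skeletal muscle markers (median -0.51) and all 12 adipocyte markers (median -0.79) had negative fold changes. Negative too were 0 of 16 hair follicle markers (median 2.57), 2 of 10 keratinocyte markers (median 0.09) and 4 of 10 fibroblast markers (median 0.16). The other marker lists had negative medians, from -0.12 (T cell) to -1.42 (red blood cell). The part of the adipocyte markers, which include Adipoq, in the levels of the members was not tested. The 95% interval covered 0 in 6 of the 9. The members were chosen with earlier results of these data known, so these counts are a description.

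Which members had an unadjusted p below 0.05 varied with the libraries kept. Without KO replicate 1, Fos (log2 fold change -2.59), Fosb (-1.003) and Atf3 (-0.56) all kept such a p in limma. Without WT replicate 2, 0 of these 3 kept such a p in limma (Maff alone then had one), and Fosb alone kept it without KO replicate 2 or KO replicate 3. With a limma fit without the mean-variance trend 0 members had one. The log2 fold change of Fos was -1.43, -1.66, -1.26 and -1.51 without WT replicate 1, WT replicate 2, KO replicate 2 and KO replicate 3, with unadjusted p-values in limma of 0.109, 0.0919, 0.117 and 0.113. Without WT replicate 3 it was -2.27 (unadjusted p = 0.00710, adjusted p = 0.551 in limma). That of Fosb was -0.84 and -0.76 without WT replicates 2 and 3, with unadjusted p-values in limma of 0.0866 and 0.0677. That of Atf3 was -0.46 and -0.36 without WT replicates 2 and 3, and -0.54 and -0.37 without KO replicates 2 and 3, with unadjusted p-values in limma of 0.101, 0.127, 0.0533 and 0.127.

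Within the family, libraries did not rank alike for all members. WT replicate 3 was the highest of the 6 libraries for 6 members (Fosb, Fosl2, Jun, Jund, Atf3 and Maff), and WT replicate 1 for 3 members (Fos, Fosl1 and Junb). KO replicate 3 was the lowest for 6 members (Fosb, Fosl2, Junb, Jund, Atf3 and Maff). How often each library was the highest or lowest over all genes was not computed, so these counts have no background. In WT replicate 3, Fosb was 0.61 above and Fosl1 0.73 below its own mean over the 6 libraries on the log2 scale. The 3 members with their highest value in WT replicate 1 shared that library with the neutrophil markers. The wound keratins Krt6a (4343 CPM) and Krt16 (3334 CPM) were also highest there, and their part was not tested. The 8 of 12 neutrophil markers in the table summed to 626, 244 and 71.7 CPM in WT replicates 1, 2 and 3 and to 237, 138 and 134 CPM in the KO replicates, with none of the 8 at 0 in any library, and their part in the result was not tested. With the score of the hair follicle markers as a covariate, the limma log2 fold change of Fos was -1.29 (unadjusted p = 0.0510, adjusted p = 0.800) and that of Fosb -1.02 (unadjusted p = 0.0116, adjusted p = 0.587). Skeletal muscle markers (15 of 15 in the table) summed to 13080 to 17061 CPM in WT and 7930 to 16471 CPM in KO. With their score as a covariate the values were -2.63 for Fos (unadjusted p = 0.00917, adjusted p = 0.953) and -1.31 for Fosb (unadjusted p = 0.00561, adjusted p = 0.953; limma). For Atf3 it was then -0.54 (unadjusted p = 0.0708, adjusted p = 0.953 in limma), and -0.62 with the hair follicle score (unadjusted p = 0.0106, adjusted p = 0.582). The hair follicle score brought Fosl2 to -0.28 and Jun to -0.33 (unadjusted p = 0.0364 and 0.0348, adjusted p = 0.765 and 0.754 in limma), and Fosl1 and Junb to -0.17 and -0.15. With the muscle score Junb was at -0.81 (unadjusted p = 0.0440, adjusted p = 0.953 in limma).

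**Figure D3:**
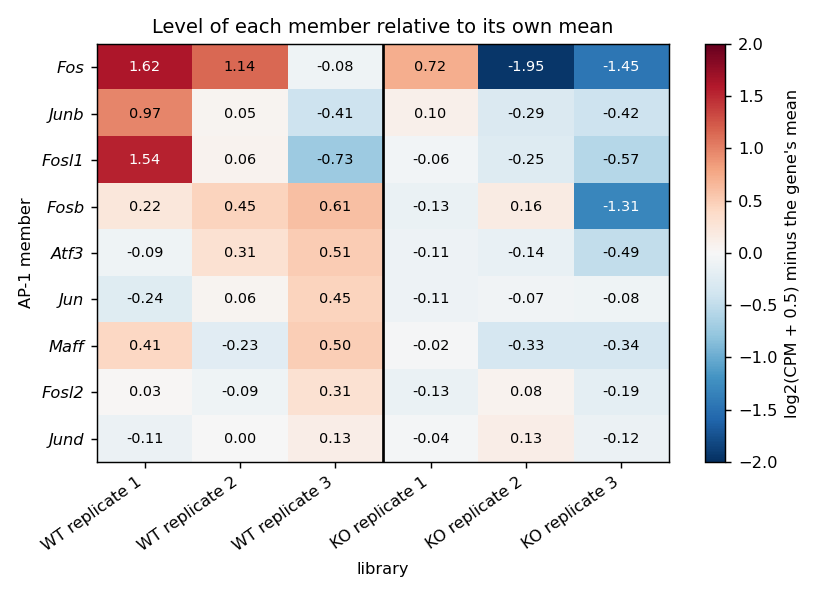
Level of each tested member in each library (columns, WT to the left of the line) as log2(CPM + 0.5) minus the mean of that gene over the 6 libraries; red is above and blue below the mean. Fos ranges from 1.62 in WT replicate 1 to -1.95 in KO replicate 2, while Fosb has its low value, -1.31, in KO replicate 3, and Jund runs from -0.12 to 0.13.

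Levels were also compared between members, per 1000 bases of the longest coding transcript (CPM per kb). Jund (129 ± 10.2) and Junb (126 ± 54.8, SD over the 6 libraries) were the most abundant and did not differ beyond their spread, Jund being higher in 4 of 6 libraries. Junb was above Fosl2 (45.1 ± 5.91 CPM per kb) in all 6 libraries with no overlap. Fosl2, Jun (39.8 ± 7.21), Fos (38.9 ± 30.5) and Fosb (33.1 ± 12.1 CPM per kb) followed with overlapping ranges. Within libraries, Fosl2 was above Jun in 6 of 6, whereas Jun was above Fos, and Fos above Fosb, in only 3 of 6. Fosl2 and Jun were close in WT replicate 2 (42.2 against 41.0 CPM per kb). The order rests on the transcript length used, and other lengths were not tried. Atf3 (13.3 ± 3.42), Maff (7.67 ± 2.12) and Fosl1 (5.35 ± 4.16 CPM per kb) came next, each with a range that overlapped that of the member above it. Fosb was above Atf3, and Atf3 above Maff, in 6 of 6 libraries, and Maff above Fosl1 in 5 of 6. Batf was the lowest at 0.486 ± 0.424 CPM per kb, and its range lay apart from that of Fosl1.

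Summed over the 10 members, the level per length was 587, 466 and 445 CPM per kb in the WT replicates and 427, 386 and 324 CPM per kb in the KO replicates. The groups did not overlap (499 ± 77.1 against 379 ± 51.6 CPM per kb, SD, n = 3 each), although WT replicate 3 and KO replicate 1 were close. The exact permutation p was 0.1, the smallest possible. For the 4 FOS genes the sums were 180, 150 and 131 CPM per kb in WT and 119, 92.1 and 64.3 CPM per kb in KO. These did not overlap either (exact permutation p = 0.1). For the 3 JUN genes they were 385, 293 and 284 CPM per kb in WT and 289, 276 and 245 CPM per kb in KO, which overlapped. JUN genes thus made up 65.6%, 62.9% and 64.0% of the summed level in the WT libraries and 67.6%, 71.3% and 75.5% in the KO libraries. These sums are a description, since the members were chosen with earlier results of these data known. How often sums of other gene sets lie apart was not computed.

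**Figure D4:**
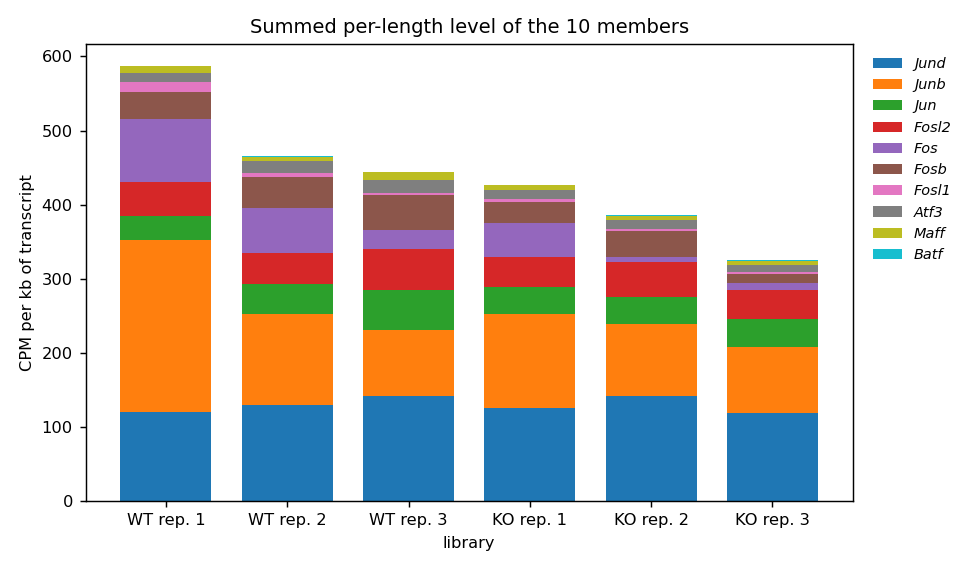
Summed level of the 10 members in CPM per kb of transcript (vertical axis) in each library, stacked by gene. The height falls between 445 and 587 in WT and between 324 and 427 in KO, and the purple part, Fos, measures 84.7 in WT replicate 1 and 6.91 in KO replicate 2.

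Genes whose profile over the 6 libraries was most like that of Fosb and Fos were found among 11685 genes averaging 5 CPM or more. The measure was the root mean square difference between log2 levels, each gene centred on its own mean. For Fosb the 5 nearest were Abcg4, Exoc3l2, Pnpla3, Arl6 and Nova1, at 0.22 to 0.23. Most of these are low genes, and Abcg4, a transporter gene, was at 10.2, 8.75 and 11.05 CPM in WT, against 7.74, 10.4 and 3.82 CPM in KO. For Fos the 5 nearest were Sele, Fam83a, Dusp1, Hbegf and Sln, at 0.49 to 0.68. The measure grows with the spread of the gene itself, so the values for Fos and Fosb cannot be set against each other. Sele, which encodes the E-selectin of activated endothelium, was at 11.6, 6.71 and 4.62 CPM in WT, against 8.19, 1.96 and 1.76 CPM in KO. Dusp1, an immediate early gene for a MAPK phosphatase, was at 189, 180 and 89.5 CPM in WT, against 137, 54.4 and 48.2 CPM in KO.

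The wider pathway was described from 4 gene lists, whose counts stand beside 1.82% lower, 1.06% higher and 56.7% negative over all genes tested. Of 29 kinases and factors upstream of AP-1 (RAS, RAF, MAPK, SRF and ELK genes among them), 0 had an unadjusted p below 0.05 in limma in either direction, and the median log2 fold change was -0.02. Map3k1, the most abundant, was at 177, 234 and 243 CPM in WT, against 196, 206 and 205 CPM in KO. Elk4, a partner of serum response factor, was at 202 ± 6.78 in WT against 201 ± 17.4 CPM in KO (SD, n = 3 each). The groups overlapped for both.

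Of 18 tested bZIP factors outside the family, 2 had an unadjusted p below 0.05, both lower in KO, and the median log2 fold change was -0.09. Ddit3, which encodes the stress factor CHOP, was at 5.57, 5.90 and 5.94 CPM in WT, against 3.19, 2.52 and 3.53 CPM in KO (log2 fold change -0.83 in limma, unadjusted p = 0.0128, adjusted p = 0.998). Mafk, a small MAF gene like Maff, was at 43.1, 49.0 and 44.5 CPM in WT, against 36.1, 41.2 and 32.02 CPM in KO (-0.32, unadjusted p = 0.0472, adjusted p = 0.998 in limma). In both genes the KO libraries lay below the WT libraries. The abundant Nfe2l1 and Maf overlapped between the groups, with log2 fold changes of -0.00084 and 0.10.

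Of 29 other immediate early genes, 8 had an unadjusted p below 0.05 and were lower in KO (limma), 0 were higher, and 28 of the 29 fold changes were negative with a median of -0.30. The 8 were Nr4a1, Klf2, Klf6, Egr1, Dusp6, Rhob, Trib1 and Dusp1. Nr4a1, an orphan nuclear receptor gene, was at 54.9, 58.6 and 58.5 CPM in WT, against 34.9, 41.2 and 26.7 CPM in KO, with no overlap (log2 fold change -0.76 in limma, unadjusted p = 0.00209, adjusted p = 0.998). Egr1 was at 205, 157 and 222 CPM in WT, against 159, 109 and 84.3 CPM in KO, where 1 KO library lay above 1 WT library (-0.76, unadjusted p = 0.0123, adjusted p = 0.998 in limma). The zinc finger genes Klf2 and Klf6 had log2 fold changes of -0.67 and -0.43 without overlap. The abundant Klf4 and Egr3 overlapped between the groups (-0.16 and -0.08).

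Of 30 genes known as AP-1 targets, among them the neutrophil markers S100a8, S100a9 and Mmp9, 2 were lower and 1 higher in KO at an unadjusted p below 0.05 in limma, and the median log2 fold change was -0.14. Areg, a ligand of the EGF receptor, was at 28.6, 6.51 and 4.62 CPM in WT, against 3.03, 2.24 and 1.18 CPM in KO (log2 fold change -2.0, unadjusted p = 0.0144, adjusted p = 0.998 in limma). WT replicate 1 stood far above the other libraries, and KO replicate 3 was near the 0.881 CPM that 3 reads stand for there. The study named Areg from these libraries. Spp1, which encodes osteopontin, was at 31.7, 16.3 and 10.9 CPM in WT, against 10.3, 4.76 and 10.3 CPM in KO (-1.11, unadjusted p = 0.0338, adjusted p = 0.998 in limma). Ereg, another ligand of the EGF receptor, went the other way, at 74.6, 101 and 96.6 CPM in WT, against 131, 105 and 130 CPM in KO (0.43, unadjusted p = 0.0235, adjusted p = 0.998 in limma). The most abundant of the list, the wound keratins Krt6a and Krt16, differed more within the groups than between them: Krt16 was at 3334, 1356 and 81.8 CPM in WT, against 1885, 290 and 1040 CPM in KO.

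**Figure D5:**
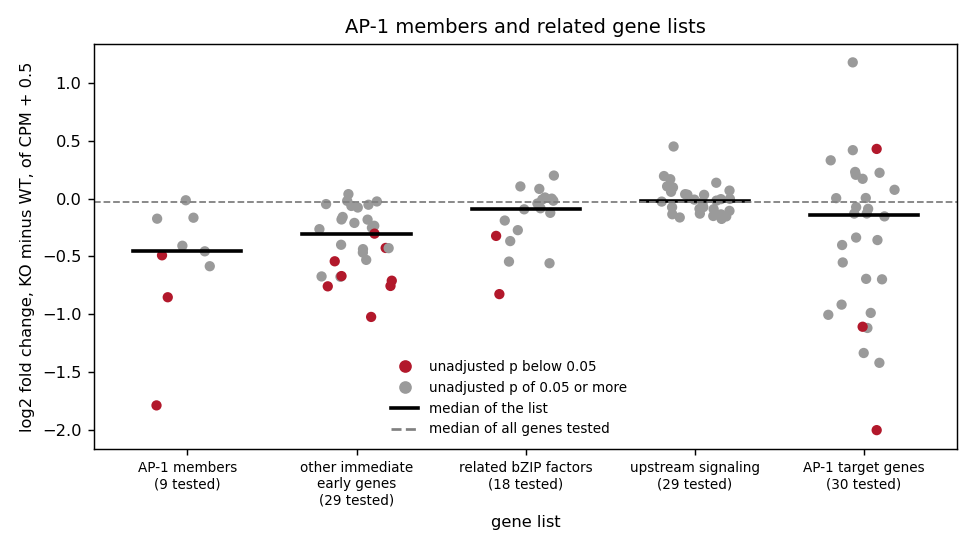
Log2 fold change (KO minus WT, on CPM + 0.5) of every tested gene in the AP-1 family and in 4 related lists, with red points for an unadjusted p below 0.05, a black line for the median of each list and a dashed line for the median of all genes tested (-0.03). The medians of the AP-1 members (-0.46) and the other immediate early genes (-0.30) lie below the dashed line, and that of the upstream list (-0.02) lies beside it.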

How the data were processed

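RNA of 6 skin punches (3 WT, 3 KO) was sequenced by the authors, trimmed, aligned to mm10 with STAR (2.7.3a), quantified with the Partek E/M algorithm (Ensembl transcripts), which can divide a read among genes, and summed per gene. The deposited values are CPM with an offset of 0.0001, which was subtracted here. The step of the lowest values gave the depth: 91.9% to 92.6% of values under 20 reads lay within 0.1 of a whole read. The 3-read floor covers counting error only. KO was compared with WT on log2(CPM + 0.5) for the 14306 genes averaging 1 CPM or more, with limma (3.58.1, R 4.3.3; mean-variance trend, two-sided, no covariate) and Benjamini-Hochberg adjustment over all genes tested. The limma fit was tested on simulated counts, and the step of the lowest values was not. The simulated spread was set alike for all genes, so that test does not cover genes as variable as Fos. Fold changes understate the change of low genes. Positions are those of the table (GRCm38), transcript lengths are from GENCODE M21 and promoters from RefSeq (GRCm38.p6). The members and lists were chosen with earlier results of these data known. Named genes were the 10 members, up to 4 genes of smallest unadjusted p below 0.05 and the 2 most abundant others of each list, and the 5 nearest profiles. Other named genes were chosen after their values were seen. That replicates came from separate mice is stated by the study. Alternatives were other pseudocounts (0.1 and 2), filters (none, 5 CPM) and scalings, other variance models, limma voom on recovered reads, a replicate block, marker scores as covariates, and leaving out each library.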

Additional observations from a re-analysis of the deposited data

How the results depend on the processing

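Of 171 values of the 9 tested members under the 19 alternatives, 137 kept their direction and their side of an unadjusted p of 0.05, 19 no longer passed, 7 newly passed and 8 changed direction. No member passed the adjustment under any of the 19, where the smallest adjusted p was 0.551 (Fos, without WT replicate 3). The number lower at an unadjusted p below 0.05 was 0 with limma without the trend and 1 with robust empirical Bayes, 4 with the hair follicle covariate (Fosb, Fosl2, Jun and Atf3), and 1 to 3 without 1 library. Members wholly lower in KO numbered 2 to 4 without 1 library (4 without WT replicate 3 or KO replicate 1). Groups lie apart more easily with fewer libraries. The share of all genes doing so was not computed for these settings, so the counts have no background. The median ranged from -0.56 to -0.33. Without 1 library, the log2 fold change ranged from -1.09 to 0.039 for Fosl1, from -0.34 to 0.0050 for Jun and from -0.085 to 0.049 for Jund. For Jund it was 0.015 with median-of-ratios rescaling, 0.020 with quantile normalization and 0.0047 with the total without Rn45s. The causes were not tested. Over all genes, 260 were lower and 152 higher at an unadjusted p below 0.05 in the main limma fit. These counts were 324 and 187 without the trend, and 258 and 150 with robust empirical Bayes. They were 584 and 306 with the hair follicle covariate, and 422 and 224 with the muscle covariate. Without WT replicates 1, 2 and 3 they were 354 and 222, 147 and 164, and 390 and 320. Without KO replicates 1, 2 and 3 they were 201 and 135, 380 and 200, and 302 and 89.

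Deviations of same-numbered libraries correlated at 0.38, -0.31 and -0.22 across genes, and not every library correlated best with its own number, so the numbers were not taken as pairs. With the replicate as a block, 2 members were lower at an unadjusted p below 0.05 (Fos and Fosb), 0 passed the adjustment, the median was -0.46, and 414 of all genes were lower. At these depths Batf could not be compared.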

Other observations

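Markers of the other cell types in the punches are given as sums over each list. The 11 macrophage markers summed to 591 to 1186 CPM in WT and 559 to 1121 CPM in KO. The 12 adipocyte markers, which include Adipoq, summed to 557 to 857 CPM in WT and 322 to 822 CPM in KO. The 10 fibroblast markers summed to 5011 to 6096 CPM in WT and 5126 to 7644 CPM in KO, and the 10 endothelial markers to 209 to 227 CPM and 140 to 228 CPM. For 8 of 10 T cell markers the sums were 30.7 to 40.1 CPM and 25.8 to 33.1 CPM, and for the 8 mast cell markers 148 to 177 CPM and 97.7 to 184 CPM. The 6 red blood cell markers ran from 264 to 7530 CPM in WT and from 94.9 to 1675 CPM in KO. The ranges of the groups overlapped for each of these lists, and their part in the levels of AP-1 members was not tested.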
